A study of Mus musculus with 8 samples.

Results

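The genes described here encode the nuclear subunits of the 5 complexes of oxidative phosphorylation, in adult mouse testis from mice labelled Ak9 knockout or wild type. They were chosen by symbol alone: gene names beginning with Nduf followed by a, b, c, s or v, the genes Sdha to Sdhd, Uqcr genes, Cyc1, Cox5, Cox6 and Cox7 genes of the a, b and c series, and Atp5 genes. Of the 56748 gene identifiers in the count table, 103 matched. From these, 9 genes with symbols marked -ps and 4 isoform genes (Cox6b1, Cox6b2, Cox7b and Cox7b2) were left out. The remaining members numbered 90, with 89 distinct symbols. By textbook assignment they held 36 genes of complex I, 4 of complex II, 9 of complex III, 10 of complex IV and 17 of complex V, 1 of these 17 being a second identifier named Atp5o with 0 counts in every library. The symbols also took in 8 complex I assembly factors (Ndufaf1 to Ndufaf8), Atp5s, a factor linked to complex V, Cox7a2l, a factor of respiratory supercomplexes, and 4 processed pseudogenes (Cox6c2, Ndufa11b, Ndufb4c and Ndufs6b). Usmg5 and Ndufb1-ps, which are complex V and complex I genes under names the rule does not take, are not members.

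Oxidative phosphorylation takes electrons from NADH at complex I and from succinate at complex II, passes them through complex III and cytochrome c to oxygen at complex IV, and uses the proton gradient built on the way to make ATP at complex V. Most subunits are encoded in the nucleus and imported into mitochondria, and complex II is the complex with no mitochondrially encoded subunit. In testis, spermatocytes and spermatids depend on mitochondrial respiration, and germ cells carry their own isoforms of some subunits of complex IV and of cytochrome c.

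RNA of adult testis was sequenced in 8 libraries, of which 4 carried the genotype label Ak9-/- and 4 the label WT. AK9 belongs to the adenylate kinases, enzymes that move phosphate between ATP, ADP and AMP, and the series asks how its loss affects sperm motility and male fertility. The labels give no strain, no exact age and no design of the deleted allele, and they do not say that each library is a different animal. The p-values therefore rest on differences among libraries that could be technical. Total counts ran from 18062780 to 24415587 per library. CPM below are counts scaled to a common library size by TMM, and a log2 fold change is labelled knockout over wild type.

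Ak9 itself was at 69.3, 116, 101 and 40.6 CPM in labelled knockouts and at 108, 115, 122 and 107 CPM in wild types, values being given here and below in the order of the library numbers. Labelled knockout 2 therefore lay within the wild-type range, and the groups could not be told apart by an exact two-sided permutation test (p = 0.143, where the smallest p this design allows is 0.0286). Because Ak9 counts do not set the groups apart and the deleted allele is not described, the libraries are called labelled knockouts throughout. Labelled knockout 3 stood apart in its cell type markers: the 12 round spermatid markers had a mean log2 level 0.74 below wild type (a score of -0.74) and the 12 elongating spermatid markers a score of -0.81. In the other labelled knockouts these scores ran from 0.24 to 0.38 and from 0.06 to 0.47. Crisp1, an epididymis gene, was at 185 CPM in labelled knockout 3 and 24.4 CPM in labelled knockout 4, against 0 to 0.535 CPM in the other 6 libraries. Of the other epididymis markers listed, Spink8 was at 50.6 and 9.21 CPM there, against 0.947 to 1.71 CPM elsewhere. Rnase10 was lowest in labelled knockout 3 (3.11 CPM) and highest in labelled knockout 4 (7.35 CPM). Lcn5, Lcn8, Lcn9, Cst11, Defb48 and Gpx5 were at 0 to 0.444 CPM in every library. Markers of brown fat and striated muscle, other tissues rich in these complexes, were nearly absent: 2 of 6 passed the filter on low counts, and the 6 summed to 12.7 to 20.03 CPM in labelled knockouts and 16.5 to 19.4 CPM in wild types, most of it from Actn3. In whole tissue, fewer cells of a type and less RNA per cell cannot be told apart.

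No member passed the test. Of the 90 members, 85 had enough counts to be tested among 21805 genes, and 0 of them differed between the groups at an adjusted p under 0.05 (edgeR's quasi-likelihood test with Benjamini-Hochberg adjustment, adjusted p = 1.00 for every member). Over all genes tested, 0.0183% were called higher and 0% lower. DESeq2 also called 0 members, beside 0.106% of all genes higher and 0.106% lower, and limma-voom 0, beside 0.0183% higher and 0% lower. Without adjustment, edgeR gave p under 0.05 to 1 member of 85, Cox7a2l, which was higher, beside 1.25% of all genes higher and 1.79% lower. Groups without overlap were seen in 1 member, Ndufs5, which was higher, beside 0.981% of all genes higher and 1.32% lower. The 5 untested members were Cox6a2, the second Atp5o identifier, Cox6c2, Ndufb4c and Ndufs6b.

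Fold changes of the members were small and more often above 0 than below. They lay above 0 in 63 of 85 members (74.1%), against 52.9% of all genes tested, but in 41 of 85 when libraries were scaled by their totals alone (42.4% of all genes) and in 36 of 85 without labelled knockout 1 (51.9% of all genes). Genes measured in the same libraries are not independent, so these counts describe the libraries and were not tested. The median log2 fold change was 0.05 in complex I (28 of 36 above 0), -0.0002 in complex II (2 of 4), 0.03 in complex III (7 of 9), -0.01 in complex IV (4 of 9 tested) and 0.04 in complex V (14 of 16 tested), beside 0.01 over all genes. Scaled by library totals, the 5 medians were 0.0034, -0.03, -0.02, -0.06 and -0.0025, beside -0.02 over all genes, which that scaling also moved down.

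**Figure D1:**
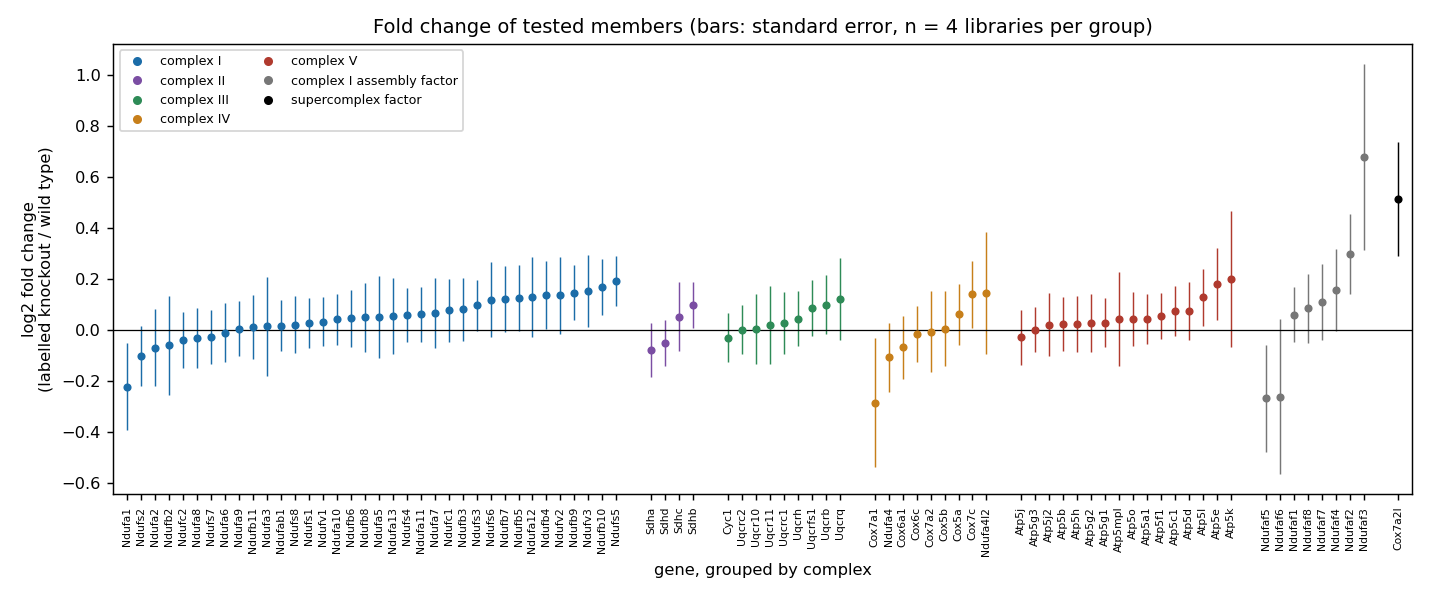
Log2 fold change of labelled knockout over wild type (vertical axis) for tested members, ordered by value within each complex (horizontal axis); points are edgeR estimates and bars 1 standard error, with 4 libraries per group. Subunits of the 5 complexes lie between -0.29 and 0.20, and the points farthest above 0 are Ndufaf3 and Cox7a2l; Atp5s (0.0046) and the pseudogene Ndufa11b (-0.12) are not drawn.

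Members differed widely in level. To compare genes, CPM was divided by transcript length in kilobases. On this scale of wild-type level, Cox7a2 of complex IV was highest at 331 CPM per kilobase ± 16.3 (SD, n = 4), followed by Atp5b, the catalytic beta subunit of ATP synthase, at 297 ± 14.6 and Cox6c at 289 ± 19.1. Cox7a2, Atp5b and Cox6c lay within or near each other's spread. Below them came Cox6a1 at 215 ± 16.8 and Uqcrq, a small complex III subunit, at 212 ± 26.6, which did not differ beyond their spread. Ndufa7 (179 ± 13.9) and Sdhb (79.2 ± 1.71) led complexes I and II. Median wild-type levels were 63.1 CPM per kilobase in complex I, 55.3 in complex II, 82.9 in complex III, 128 in complex IV and 88.6 in complex V, and 14.7 in the complex I assembly factors.

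**Figure D2:**
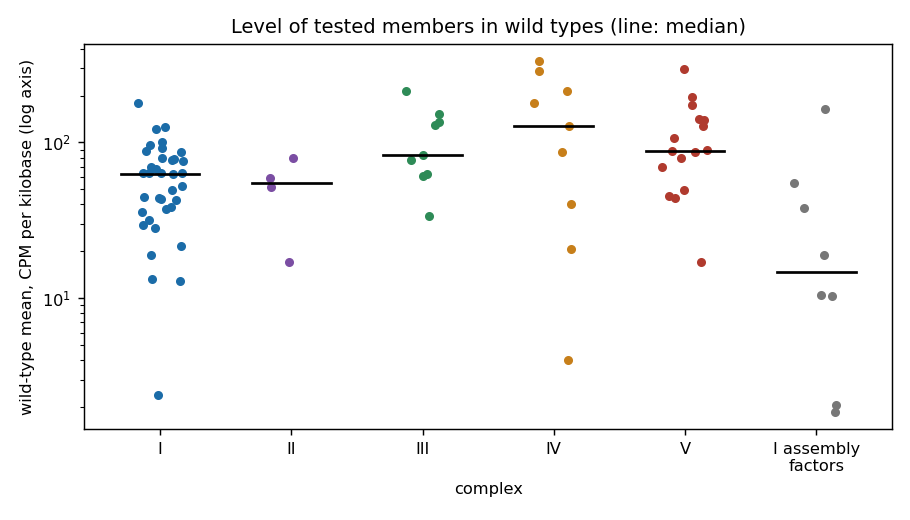
Wild-type mean level of tested members in CPM per kilobase (vertical axis, log scale) by complex (horizontal axis); each point is 1 gene, spread sideways for legibility, and each line the median. Complex IV runs from Cox7a1 at 4.02 to Cox7a2 at 331, and the assembly factors have the lowest median, 14.7.

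The muscle-type isoforms were at the bottom of complex IV. Cox6a2, the heart and muscle form of subunit 6a, had 2 to 10 counts per library and was not tested. Cox7a1, the muscle form of subunit 7a, was at 1.17, 0.917, 1.63 and 1.46 CPM in labelled knockouts and 1.604, 1.62, 1.29 and 1.80 CPM in wild types, with a log2 fold change of -0.29 (SE 0.25) and overlapping groups. Their widely expressed counterparts Cox6a1 and Cox7a2 were among the highest members per kilobase.

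Promoter sequence was looked at as a description of the members, and no motif was compared with the library patterns described further on. NRF1, a transcription factor known for its sites in respiratory chain genes, recognises a GC-rich palindrome, written in capitals below. These exact letters were present in 7 of 75 promoter windows of members (9.33%), against 0.971% of 32851 windows of the same 300-base length in the RefSeq table, which runs from 250 bases before to 50 after each start and matched 70 of 89 member symbols. The 30 bases around each match (RefSeq, GRCm38.p6, on the strand of the gene, motif in capitals) are printed so that the flanks can be compared.
Atp5g2, chr15:102671070-102671099, minus strand: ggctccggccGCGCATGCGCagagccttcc
Atp5k, chr5:108434430-108434459, minus strand: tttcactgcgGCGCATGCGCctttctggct
Cox6a1, chr5:115349101-115349130, minus strand: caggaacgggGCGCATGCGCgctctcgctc
Ndufa11, chr17:56717692-56717721, plus strand: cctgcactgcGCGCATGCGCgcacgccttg
Ndufaf4, chr4:24897960-24897989, plus strand: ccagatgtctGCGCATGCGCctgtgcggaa
Ndufaf5, chr2:140170652-140170681, plus strand: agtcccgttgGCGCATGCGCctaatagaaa
Uqcrc1, chr9:108936668-108936697, plus strand: actccgctctGCGCATGCGCagcgcggctc

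These 7 genes come from complexes I, III, IV and V and the assembly factors, and their log2 fold changes ran from -0.27 (Ndufaf5) to 0.20 (Atp5k), with none past the threshold. The YY1 motif AAGATGGCG was present in 8 windows (10.7%, against 1.40% of all windows) and the ERRA motif TCAAGGTCA in 2 (2.67%, against 0.423%). The GABPA motif CCGGAAGT was in 4 (5.33%, against 3.89%), the cAMP response element TGACGTCA in 4 (5.33%, against 1.79%), the SP1 motif GGGCGG in 34 (45.3%, against 35.7%) and TATAAA in 6 (8%, against 13.6%). Each motif was searched as these letters on both strands. A match describes the sequence and was not set against any measure of binding. The windows of all genes were not matched to those of members for base composition.

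Within complex I, the group that contains the core subunits, the S and V genes that carry the flavin and the iron-sulfur clusters together with some accessory genes, had a median log2 fold change of 0.06 (9 of 11 above 0), and the accessory A, B and C genes one of 0.05 (19 of 25). Ndufs5, an accessory subunit (ENSMUSG00000028648, chromosome 4), was at 49.1, 42.2, 40.4 and 42.2 CPM in labelled knockouts and 40.0, 38.5, 36.2 and 37.7 CPM in wild types. Every labelled knockout was above every wild type, the closest pair being 40.4 and 40.0 CPM, and the log2 fold change of 0.19 (SE 0.10) did not pass the test. Ndufb10, an accessory subunit of the membrane arm, was at 74.7, 59.5, 55.4 and 66.6 CPM against 60.8, 56.6, 53.2 and 57.4 CPM, and labelled knockouts 2 and 3 overlapped the wild types. Ndufa7, the complex I member highest per kilobase, was at 111, 103, 72.1 and 109 CPM against 104, 86.8, 91.4 and 95.3 CPM. In Ndufa7 labelled knockout 3 lay below every wild type and labelled knockouts 1 and 4 above them all. Of the other complex I genes, log2 fold changes ran from -0.22 (Ndufa1) to 0.15 (Ndufv3).

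Complex II links the chain to the citric acid cycle and was the complex whose mean library score, given further on, went the other way. Its 4 genes did not share this pattern. In labelled knockout 3 the log2 difference from the wild-type mean was 0.39 for Sdhc, 0.11 for Sdha, 0.01 for Sdhd and -0.04 for Sdhb. Sdha, the flavoprotein that oxidises succinate, was at 168, 144, 183 and 149 CPM in labelled knockouts and 185, 168, 163 and 165 CPM in wild types. Sdhb, the iron-sulfur subunit, was at 101, 104, 87.8 and 94.6 CPM against 87.9, 92.1, 89.9 and 91.7 CPM. Sdhc, a membrane anchor (ENSMUSG00000058076, chromosome 1), was at 44.6, 52.4, 70.7 and 56.2 CPM against 52.4, 49.4, 57.03 and 57.3 CPM. The groups overlapped in each of these genes. In Sdhc labelled knockout 3 was the highest library and labelled knockout 1 the lowest, whereas in Sdhb labelled knockout 3 was the lowest library. Log2 fold changes were -0.08 (SE 0.11) for Sdha, 0.10 (SE 0.09) for Sdhb, 0.05 (SE 0.14) for Sdhc and -0.05 (SE 0.09) for Sdhd, the other anchor.

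Complex III genes had fold changes close to 0. Uqcrfs1, the Rieske iron-sulfur protein, was at 132, 117, 97.9 and 132 CPM in labelled knockouts and 112, 111, 111 and 118 CPM in wild types, with a log2 fold change of 0.08 (SE 0.11). Uqcrb, a small accessory subunit, was at 52.5, 44.1, 40.7 and 40.3 CPM against 46.6, 42.8, 38.3 and 38.2 CPM (0.10, SE 0.12). Uqcrq was at 279, 214, 163 and 233 CPM against 238, 185, 184 and 211 CPM (0.12, SE 0.16). In all 3 the groups overlapped and labelled knockout 1 was at or near the top. Labelled knockout 3 was the lowest library for Uqcrfs1 and Uqcrq but not for Uqcrb. Uqcrc2, a core protein, had a log2 fold change of -0.00014, and Cyc1, cytochrome c1, had the lowest of the complex at -0.03.

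Complex IV held both the highest member per kilobase and members that varied strongly among the labelled knockouts. Cox7a2 was at 258, 234, 145 and 229.6 CPM in labelled knockouts and 221, 203, 219 and 229 CPM in wild types. Cox7c, another small nuclear subunit, was at 128, 106, 84.5 and 108 CPM against 109, 93.3, 85.3 and 99.4 CPM. Labelled knockout 3 was the lowest library for both, and the fold changes were -0.01 (SE 0.16) and 0.14 (SE 0.13) on the log2 scale. Ndufa4, once counted to complex I and now to complex IV, was at 20.6, 20.4, 22.9 and 15.6 CPM against 20.5, 20.7, 20.3 and 24.35 CPM. Its relative Ndufa4l2, known as a hypoxia-induced gene, was at 26.2, 14.9, 14.0 and 30.3 CPM against 22.3, 16.9, 17.6 and 20.5 CPM. For Ndufa4 labelled knockout 4 was the lowest library and the other labelled knockouts lay within the wild-type range. For Ndufa4l2 labelled knockouts 1 and 4 lay above every wild type and labelled knockouts 2 and 3 below them all.

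Complex V is ATP synthase, with a catalytic F1 head and an Fo and stalk part in the membrane. All 5 F1 genes had log2 fold changes above 0 (median 0.07), as did 9 of 11 tested Fo and stalk genes (median 0.03). Scaled by library totals, the medians were 0.03 and -0.01, beside -0.02 over all genes. Atp5b, the catalytic beta subunit, was at 632, 559, 538 and 579 CPM in labelled knockouts and 599.5, 556, 537 and 583 CPM in wild types, with a log2 fold change of 0.02 (SE 0.11), or -0.02 with library totals, where the median of all genes was also -0.02. Atp5e, the epsilon subunit, was at 110.4, 85.0, 78.1 and 101 CPM against 97.8, 70.4, 73.7 and 89.0 CPM (0.18, SE 0.14). Atp5l, subunit g, was at 32.4, 28.5, 26.9 and 29.2 CPM against 30.2, 26.0, 23.5 and 27.4 CPM (0.13, SE 0.11). The groups overlapped in all 3, and labelled knockout 1 was their highest library. Atp5k, subunit e, which joins ATP synthase into dimers, was at 28.4, 16.2, 16.6 and 16.2 CPM against 24.7, 13.9, 10.4 and 18.5 CPM, so that 1 library of each group stood well above its others. The 3 genes that each encode the c subunit of the rotor, Atp5g1, Atp5g2 and Atp5g3, differed little, with log2 fold changes of 0.03, 0.03 and -0.00076.

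**Figure D3:**
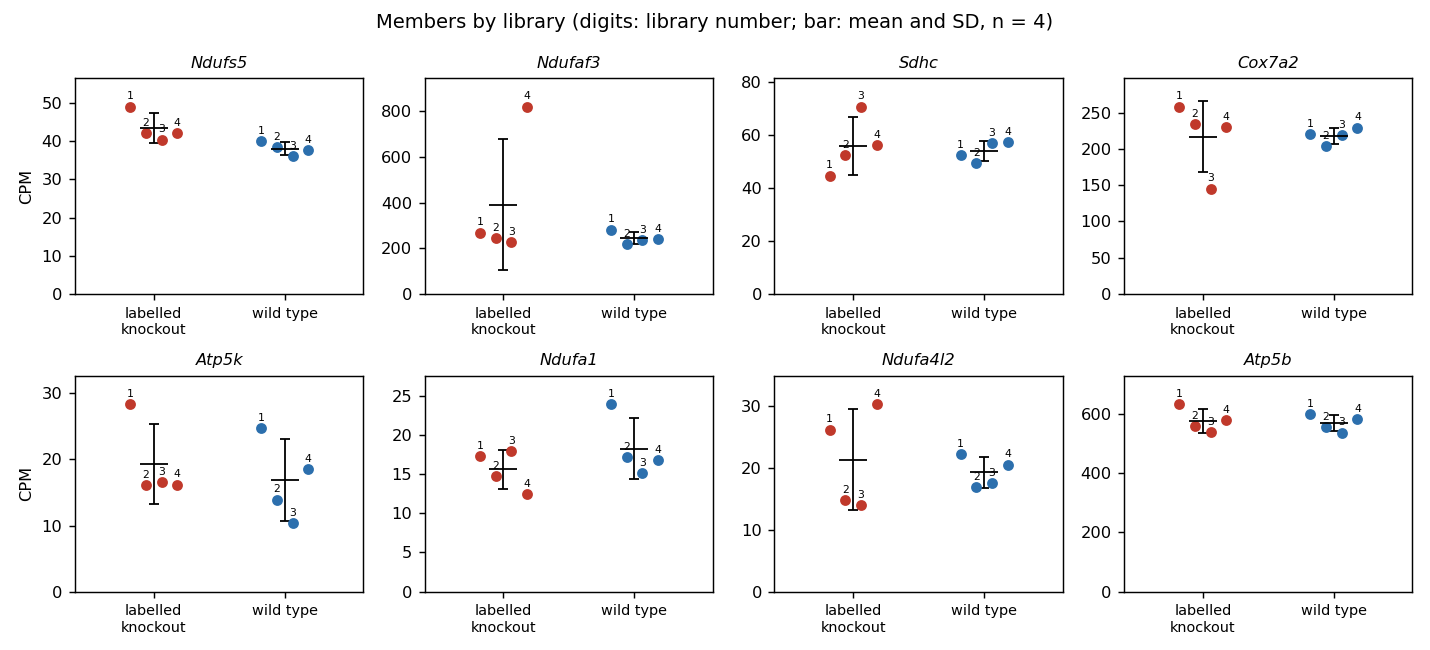
Level in CPM (vertical axis, from 0) of 8 members in the labelled knockout and wild-type libraries (horizontal axis); each digit marks a library's number, and the bars show mean and SD of 4 libraries. Ndufs5 is the member without overlap, Ndufaf3 has 819 CPM in labelled knockout 4, and Sdhc and Cox7a2 have labelled knockout 3 at opposite ends.

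The complexes moved from library to library more than they differed between groups. A score, the mean log2 level of a complex's tested genes minus its wild-type mean, was 0.23, 0.06, -0.16 and 0.03 for complex I in labelled knockouts, against 0.08, -0.05, -0.06 and 0.03 in wild types. Complex III scored 0.22, 0.02, -0.12 and 0.02 against 0.10, -0.06, -0.10 and 0.06, and complex V 0.19, 0.05, -0.09 and 0.08 against 0.12, -0.08, -0.11 and 0.07. Complexes I, III and V shared an order on the TMM scale, with labelled knockout 1 highest and labelled knockout 3 lowest among the labelled knockouts. The TMM factors were 0.932, 0.998, 1.13 and 0.903 in labelled knockouts 1 to 4 and 0.999 to 1.04 in wild types. A factor above 1 lowers the CPM of its library. Scores with library totals were not computed. Such scaling would move all scores of a library together, up in labelled knockout 3 and down in labelled knockouts 1 and 4. These shifts are of the size of the scores themselves. The order, with labelled knockout 3 as the lowest, therefore depends on the scaling and is given for the TMM scale only. Complex IV had 0.16, -0.12, -0.18 and 0.02 against 0.09, -0.07, -0.11 and 0.10. Complex II, with 4 genes, scored -0.07, -0.01, 0.12 and -0.04 against -0.01, -0.01, -0.0046 and 0.03. Here labelled knockout 3 was the highest and labelled knockout 1 the lowest. Sdhc had the largest difference in labelled knockout 3 (0.39), and Sdhb lay slightly below its wild-type mean there (-0.04).

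Labelled knockout 1 was above every wild type in 54 of the 74 tested subunits (73.0%, against 32.5% of all genes). The largest log2 differences from the wild-type mean there were 0.82 for Atp5k and 0.46 each for Ndufv3, Ndufs6 and Uqcrq. Labelled knockout 3 was below every wild type in 38 of 74 (51.4%, against 36.1% of all genes) and above every wild type in 9 (12.2%, against 33.5% of all genes). Its lowest subunits were Cox7a2 (-0.58), Ndufa5 (-0.49) and Atp5mpl (-0.49), and its highest was Sdhc (0.39). The wild types varied too: wild type 1 was above the other wild types in 43 of 74 (58.1%, against 28.9% of all genes) and wild type 3 below them in 31 (41.9%, against 20.1%). The lowest subunits of labelled knockout 4 were Ndufa1 (-0.53), Ndufa4 (-0.45), Cox6a1 (-0.33) and Ndufb11 (-0.29). Of these, Ndufa1 and Ndufb11 are X-linked and are the X-linked members. In labelled knockouts 1 to 3, Ndufb11 was at 0.17, -0.01 and 0.12 and Ndufa1 at -0.06, -0.28 and 0.001, so the X-linked members shared no pattern there. The counts and differences given for these libraries use TMM-scaled CPM and were not made with library totals.

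Marker lists of testis cell types also differed between libraries. Round spermatid markers scored 0.38, 0.27, -0.74 and 0.24 in labelled knockouts and 0.05, -0.18, 0.08 and 0.05 in wild types. Elongating spermatid markers scored 0.37, 0.06, -0.81 and 0.47 against 0.14, -0.15, -0.03 and 0.04. Both lists had labelled knockout 3 as the lowest labelled knockout, like the subunits of complexes I, III, IV and V on the TMM scale. Labelled knockout 4, however, had the highest elongating score. The score of all subunits together was 0.03 there, against 0.19, 0.02 and -0.13 in labelled knockouts 1 to 3. All 12 round spermatid markers were tested, none was at 0 in all libraries, and they summed to 724 to 1513 CPM in labelled knockouts and 1054 to 1251 CPM in wild types. The 12 elongating spermatid markers, likewise all tested, summed to 9283 to 22470.0 CPM and 14675 to 18299 CPM. Sertoli cell markers had scores of -0.22, -0.03, 0.46 and -0.48 in labelled knockouts, and their 11 genes summed to 1234 to 2299.9 CPM against 1634 to 1829 CPM. Leydig cell markers, 10 genes, scored -0.34, -0.33, 0.02 and -0.997 in labelled knockouts, and summed to 1088 to 2268 CPM against 2072 to 2357 CPM. Among wild types, the subunits together scored 0.09, -0.06, -0.08 and 0.05: wild types 1 and 4 were highest for them and for elongating spermatid markers, whereas wild type 3 was the highest for round spermatid markers and the lowest for the subunits. The part of cell composition in the subunit levels was not tested.

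Transcript length went with the library pattern in some libraries. Across the 74 subunits, Spearman's rho between the difference from the wild-type mean and transcript length was -0.38 in labelled knockout 1, -0.46 in wild type 1 and 0.57 in wild type 3, and between -0.26 and 0.25 in the other 5 libraries. Over 21330 genes it was -0.24, -0.12 and 0.02 in the first 3 libraries named. It was largest over all genes in labelled knockout 3, at 0.27, where the subunits gave 0.05. The remaining libraries had values between -0.16 and 0.17 over all genes. These values describe genes that share a library and are no test, and the part of transcript length was not tested.

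**Figure D4:**
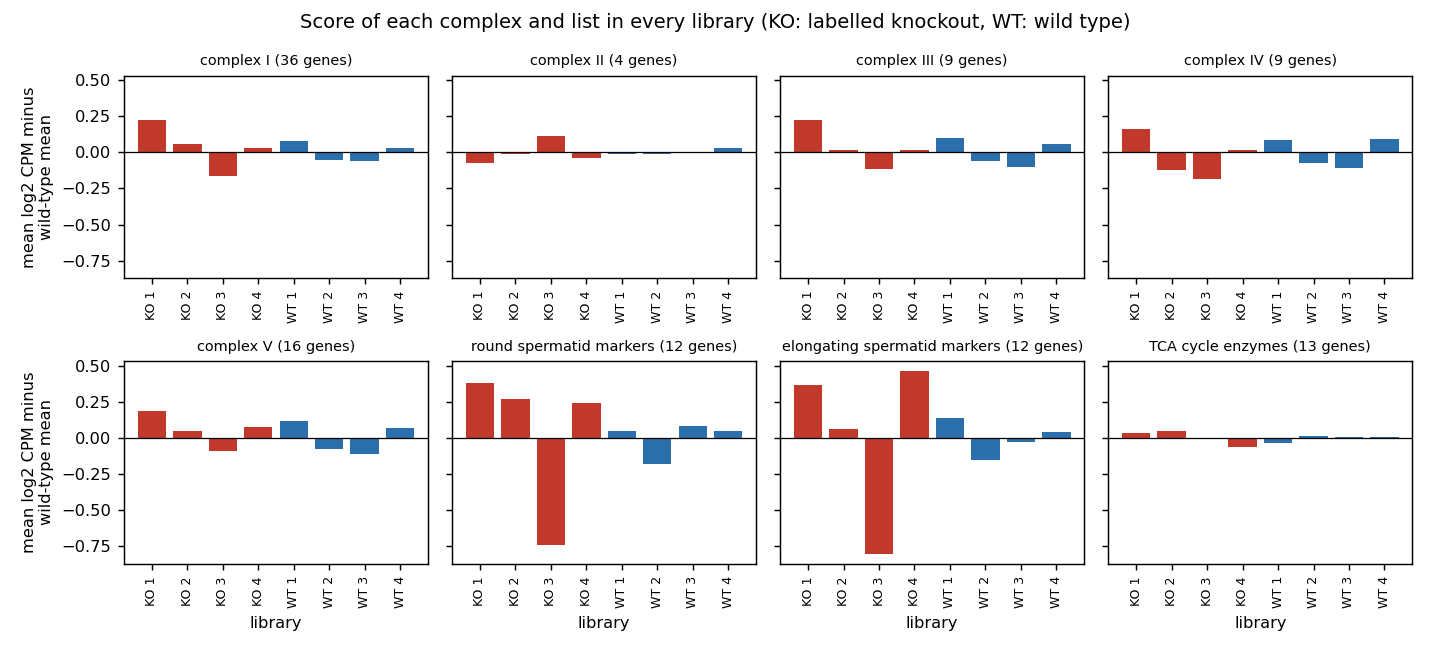
Score of each complex and of 3 marker or pathway lists (mean log2 CPM of the tested genes minus the wild-type mean, vertical axis, same scale in all panels) in each library (horizontal axis, KO for labelled knockout and WT for wild type). On the TMM scale, complexes I, III, IV and V are highest in labelled knockout 1 and lowest of the labelled knockouts in number 3. Complex II is highest in number 3 and lowest in number 1, and spermatid markers fall to -0.74 and -0.81 in labelled knockout 3.

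Without labelled knockout 3, 0 members passed, beside 0.104% of all genes called higher and 0.0542% lower. The medians became 0.11 in complex I, -0.09 in complex II, 0.08 in complex III, 0.04 in complex IV, 0.08 in complex V and 0.08 in the assembly factors, beside -0.01 over all genes. Unadjusted p-values under 0.05 were then found in 12 of 85 members, all higher (14.1%), and 0 members were lower. Of all genes, 10% were higher and 9% lower on that count. The share of higher members was thus not far from the background, while the share of lower members was below it. Members share their libraries, and this split was not tested. The 12 were Ndufa7, Ndufa13, Ndufb4, Ndufb5, Ndufb10, Ndufs5 and Ndufv2 of complex I, Uqcrfs1, Cox7c, the assembly factors Ndufaf2 and Ndufaf3, and Cox7a2l. The smallest adjusted p in edgeR was 0.0832, for Ndufaf2, with a log2 fold change of 0.43.

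Assembly factors help build complex I and are not part of the finished enzyme. Of the 8, 6 had log2 fold changes above 0 (median 0.10). Ndufaf2, a complex I chaperone, was at 45.8, 48.5, 31.1 and 56.7 CPM in labelled knockouts and 35.3, 35.9, 37.5 and 39.6 CPM in wild types. Labelled knockouts 1, 2 and 4 were above every wild type and labelled knockout 3 below them all, and the log2 fold change was 0.30 (SE 0.16). Ndufaf3 (ENSMUSG00000070283, chromosome 9) was at 269, 245, 228 and 819 CPM against 281, 219, 237 and 239.7 CPM. Its log2 fold change of 0.68 (SE 0.36), the largest of all members, rested on labelled knockout 4 and was 0.02 without it. Ndufaf3 overlaps Impdh2 on the other strand, and Impdh2 was at 188, 115, 115 and 149.9 CPM in labelled knockouts and 138, 124, 125 and 140.3 CPM in wild types, so that it was highest in labelled knockout 1 and not in labelled knockout 4. The sources used here do not say whether reads were counted by strand, and no near-identical copy of Ndufaf3 was found. Ndufaf5 was at 7.48, 12.4, 7.11 and 13.3 CPM against 12.9, 11.2, 12.7 and 11.5 CPM, with labelled knockouts 1 and 3 below the wild types and labelled knockout 4 above them.

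Cox7a2l, which encodes the factor that holds complexes III and IV together in supercomplexes, was the member with the smallest unadjusted p (edgeR, 0.0412, adjusted p = 1.00). It (ENSMUSG00000024248, chromosome 17) was at 54.8, 70.3, 51.9 and 87.6 CPM in labelled knockouts and 60.5, 56.1, 34.9 and 34.1 CPM in wild types, a log2 fold change of 0.51 (SE 0.22). Wild types 3 and 4 were the lowest libraries, and wild types 1 and 2 lay among the labelled knockouts. The processed pseudogene Gm6969 on chromosome 12 is a near copy of its coding sequence. The stretches below carry every difference between them (GENCODE M21 transcripts, GRCm38, coding strand, bases 181 to 312 of the 336-base Cox7a2l coding sequence counted from the A of its start codon), and capitals mark the bases that differ.
Cox7a2l: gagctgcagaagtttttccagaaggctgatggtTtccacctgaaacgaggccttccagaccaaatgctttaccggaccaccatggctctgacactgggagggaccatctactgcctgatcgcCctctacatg
Gm6969: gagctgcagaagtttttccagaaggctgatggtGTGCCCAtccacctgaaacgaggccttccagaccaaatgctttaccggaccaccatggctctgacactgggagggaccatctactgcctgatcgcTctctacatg

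Over the whole coding sequence 334 bases were identical (99.4% of those aligned), the substitutions were T214A and C303T, and Gm6969 had 6 further bases that the reference Cox7a2l lacks. As background, the reference genome comes from C57BL/6J mice, which carry a short form of Cox7a2l, and some other strains carry a form with the additional bases.

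Gm6969 was at 41.3, 35.0, 20.3 and 0.0583 CPM in labelled knockouts, the last value being 1 count, and 23.6, 22.9, 44.4 and 42.4 CPM in wild types. Its share of the counts of both genes was 43.0, 33.2, 28.1 and 0.0665% in labelled knockouts and 28.1, 29.02, 56.0 and 55.5% in wild types. Libraries low in Cox7a2l were thus high in Gm6969 among the wild types, and the library highest in Cox7a2l had almost none of it. The sum of both was 96.1, 105, 72.2 and 87.7 CPM against 84.1, 79.1, 79.3 and 76.5 CPM. The wild types then lay close together, from 76.5 to 84.1 CPM, and the log2 fold change of the sum was 0.18 (SE 0.12, adjusted p = 1.00 in edgeR). Adding the counts was chosen after the values were seen. Whether strain or the way reads with several matches were counted set these shares was not tested.

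**Figure D5:**
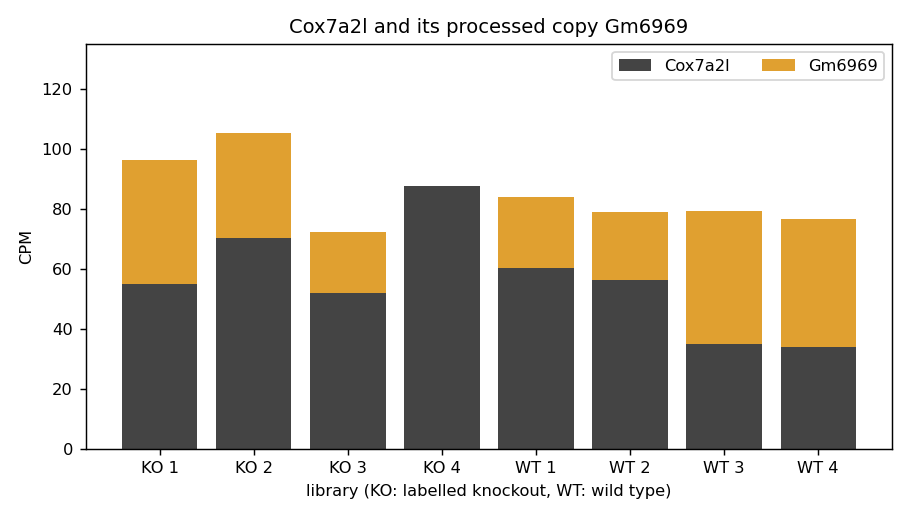
Level in CPM (vertical axis, from 0) of Cox7a2l (dark) and its processed copy Gm6969 (orange), stacked, in each library (horizontal axis; KO, labelled knockout; WT, wild type). The copy is at 0.0583 CPM in labelled knockout 4 and above Cox7a2l in wild types 3 and 4, and the stacked sum runs from 72.2 to 105 CPM.

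Counts assigned to near copies were low beside those of most other members. At least 95% identity over 80% of a copy's length was found for 21 members and 38 copies, and the copies came to more than 5% of the member's level for Cox7a2l (51.1%) and Atp5l (6.87%). How reads matching both a member and a copy were counted is not stated. Low counts of a copy therefore do not show whether its member lost reads. The tested pseudogene among the members, Ndufa11b, had a log2 fold change of -0.12 (SE 0.22).

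Genes that work with the members gave the same picture of no call. Of 10 tested subunits outside the rule, which include the germ cell form of cytochrome c and the testis forms of complex IV subunits, 0 passed the threshold and 6 had log2 fold changes above 0 (median 0.08), with 0.18 (SE 0.11) for Cyct, the testis cytochrome c. Other assembly factors passed in 0 of 10 for complex I (6 above 0, Dmac2 at 0.11), 0 of 4 for complex II (1 above 0, Sdhaf4 at 0.12), 0 of 6 for complex III (5 above 0, Uqcc2 at 0.17), 0 of 18 for complex IV (10 above 0, Coa6 at 0.24) and 0 of 3 for complex V (2 above 0, Atpaf2 at -0.17). Of 12 regulators of mitochondrial biogenesis 0 passed and 10 were above 0 (median 0.06), with Tfb1m at 0.40 (SE 0.20). Of 13 citric acid cycle enzymes 0 passed and 7 were above 0 (median 0.02), with Idh3a, a subunit of isocitrate dehydrogenase, at 0.23 (SE 0.12). On the TMM scale, the citric acid cycle score stayed between -0.06 and 0.05 in every library, whereas that of complex I ran from -0.16 to 0.23. Library totals would move both scores of a library by the same amount, so this contrast holds for the TMM scale only.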

How the data were processed

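RNA-seq of adult testis was measured in 4 labelled knockout and 4 wild-type libraries, grouped by sample title. Per the labels, libraries were made with a TruSeq kit from DNase-treated TRIzol RNA. The values are raw counts per gene, not normalized, as the authors deposited them. The submitters' processing notes name the builds GRCm39 and mm39 and the tools STAR, Trimmomatic, DESeq2 and featureCounts. Their versions, the strand setting and the treatment of multiply matching reads are not stated in these sources. There were 0 unmapped columns. The members and gene lists were chosen with earlier results of these data known.

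Low counts were removed with filterByExpr (minimum count 10, minimum total 15), libraries were scaled by TMM, and groups were compared with edgeR 4.0.16 (R 4.3.3), Benjamini-Hochberg adjustment and a threshold of 0.05, over all 21805 genes. Scores use log2 of counts with 2 added. CPM are per effective library size, and CPM per kilobase use the median length of the principal transcripts in GENCODE M21, which is on GRCm38 and was used for names, lengths, overlaps and copies (blastn 2.17.0, at least 200 bases). A count of 0 allows 0.123 to 0.166 CPM (3 counts, counting error only). No 2 libraries of a group were copies (chi-square per gene 4.52 or more). The scripts were tested on simulated counts.

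Named by rule were, in each complex and the assembly factors, the 2 tested members with the smallest p and the highest per kilobase, members without overlap, muscle-type isoforms and the member with the smallest p of each pathway list. All other genes named were chosen after their values were seen. Alternatives were a replicate block, RLE size factors, library totals, limma-voom (limma 3.58.1), DESeq2 1.42.0, no filter, a minimum mean of 1 CPM, leaving out each library and, added after seeing the data, the summed counts of Cox7a2l and its copy.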

Additional observations from a re-analysis of the deposited data

Results flagged for a closer look

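In 3 of 72 groups of 4 libraries examined among the named genes, 1 library lay far from the other 3 by Dixon's criterion, which chance alone gives in about 1 of 20 groups. Ndufaf3 was at 819.5 CPM in labelled knockout 4, where the other labelled knockouts were at 228.5 to 268.7 CPM. Atp5k was at 28.35 CPM in labelled knockout 1, where the others were at 16.16 to 16.58 CPM, and wild type 1 was also its highest wild type. Ndufa4 was at 24.35 CPM in wild type 4, where the other wild types were at 20.3 to 20.65 CPM.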

How the results depend on the processing

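The members past the threshold numbered 0 under every alternative run, in both directions. Members above 0 were 41 with library totals only, and 36 to 67 when each library was left out in turn, the 36 without labelled knockout 1. Among all genes, the calls were 1 lower with library totals only, 16 higher and 10 lower with no low-count filter, and 23 and 23 with DESeq2; leaving out each library in turn gave 3 to 23 higher and 0 to 24 lower. The complex II median ran from -0.0901 (without labelled knockout 3) to 0.0246 on leaving out each library. The other medians ran from -0.0175 to 0.1119 for complex I, -0.0149 to 0.0846 for complex III, -0.1088 to 0.0449 for complex IV and 0.0027 to 0.0805 for complex V.

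Scaling by library totals moved the median of all genes from 0.0109 to -0.0245, and with it Atp5b (-0.0194), Ndufa5 (-0.0032), Ndufb11 (-0.02) and Atp5mpl (-0.0116) to just below 0 and still above that median. Signs also turned for Ndufb11 with no filter (-0.0028) and with the replicate block (-0.0009). On leaving out each library they ran across 0 for Ndufa7 (-0.003 to 0.1778), Uqcrq (-0.0144 to 0.2307), Cox7a2 (-0.1088 to 0.1314), Atp5b (-0.0303 to 0.0477), Ndufa5 (-0.0813 to 0.1839), Ndufb11 (-0.0522 to 0.0955), Sdhc (-0.0946 to 0.1429), Cox6a1 (-0.1744 to 0.0092), Ndufa4l2 (-0.0716 to 0.287), Atp5k (-0.0505 to 0.4396) and Atp5mpl (-0.0534 to 0.1784). The cause was not tested. Of 451 values of 30 named genes under the alternatives, 0 passed the threshold, and the lowest adjusted p was 0.0832.

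The replicate numbers share only a number: same-numbered libraries correlated at 0.09, 0.04, -0.03 and 0.03, and 2 of the 4 numbers had their best partner at their own number. With the replicate number as a block, 0 members passed, 60 were above 0, and 4 genes of all were called higher and 0 lower.

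Depth limits the members with few counts, such as Cox6a2 with 2 to 10 counts per library, which was too low to be tested.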
